A study of Mus musculus with 40 samples.

Results

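The response of the pancreas to acute loss of Mdm2 was set against the response of the kidney, gene by gene, to separate changes that both tissues shared from changes that one tissue showed and the other did not. The measure was the tissue-by-genotype difference, which is the effect of Mdm2 loss in the pancreas minus the effect in the kidney. The members are the 16 pancreas and kidney libraries of a series of 40, chosen by their labels. Each tissue gave 3 libraries from Tg mice and 5 from FMTg mice. Tg mice had the genotype Mdm2+/- Cag-CreERTg and so kept 1 of the usual pair of Mdm2 copies. FMTg mice had the genotype Mdm2FM/- Cag-CreERTg, which the series' title describes as Mdm2 loss, and the labels do not spell out the FM allele. All groups therefore carried 1 null allele of Mdm2 and the same Cre transgene, whose Cag promoter is active in most cell types, so no group has the full Mdm2 dose and Cre was not limited to a single cell type. The mice were of the strain C57BL/6j and 60 days old, and all were labelled as 24 hours after p53 activation. For Tg mice, which kept 1 Mdm2 copy, this label does not show that p53 was active. In all, 11 mice were used, 3 Tg and 8 FMTg. All 3 Tg mice and 2 of the FMTg mice gave both tissues, 3 FMTg mice gave a pancreas only and 3 a kidney only.

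The transcription factor p53 is held at a low level in unstressed cells by Mdm2, a ubiquitin ligase that binds p53, blocks its activity and marks it for breakdown. Without Mdm2, p53 accumulates and raises genes for cell-cycle arrest, apoptosis, DNA repair and its own restraint, Mdm2 among them. The pancreas consists mostly of acinar cells that make digestive enzymes, with ducts and hormone-secreting islets, and the kidney mostly of tubule cells that reabsorb filtered solutes.

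Depth was lower in the pancreas, at 7155461 to 13857213 reads per library, than in the kidney, at 14611826 to 27942108 reads. Reads are given below as normalised reads, scaled to the common depth of the deposited table. At that scale 1 read was worth 1.63 to 6.16 normalised reads in the pancreas and 0.545 to 0.892 in the kidney, so low pancreas values rest on few reads. Acinar genes took 38.0% to 65.1% of the reads in the pancreas, and proximal tubule genes took 3.52% to 4.95% in the kidney. FMTg Pancreas replicates 4 and 5 had reads in fewer genes, 12004 and 13937, against 15406 to 16465 in the other pancreas libraries. At an equal depth of 7155461 reads the expected numbers were 12004 and 13771, against 15009 to 16080. FMTg Pancreas replicate 3 stood apart in its kidney genes. Its proximal tubule genes took 0.845% of reads, against 0.0131% to 0.0260% in the other 7 pancreas libraries. The loop-of-Henle protein Umod had 24512 normalised reads there, against 0 to 278 in the other pancreas libraries and 57114 to 77439 in kidneys other than FMTg Kidney replicate 3. The proton pump subunit Atp6v1g3 was likewise above all other pancreas libraries, at 169.9 normalised reads. This library held kidney transcripts, so values without it are given for the counts and for several genes. FMTg Kidney replicate 3, from the same mouse, had 2.00% of its reads in acinar genes, against 0.00361% to 0.636% in the other kidneys.

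**Figure D1:**
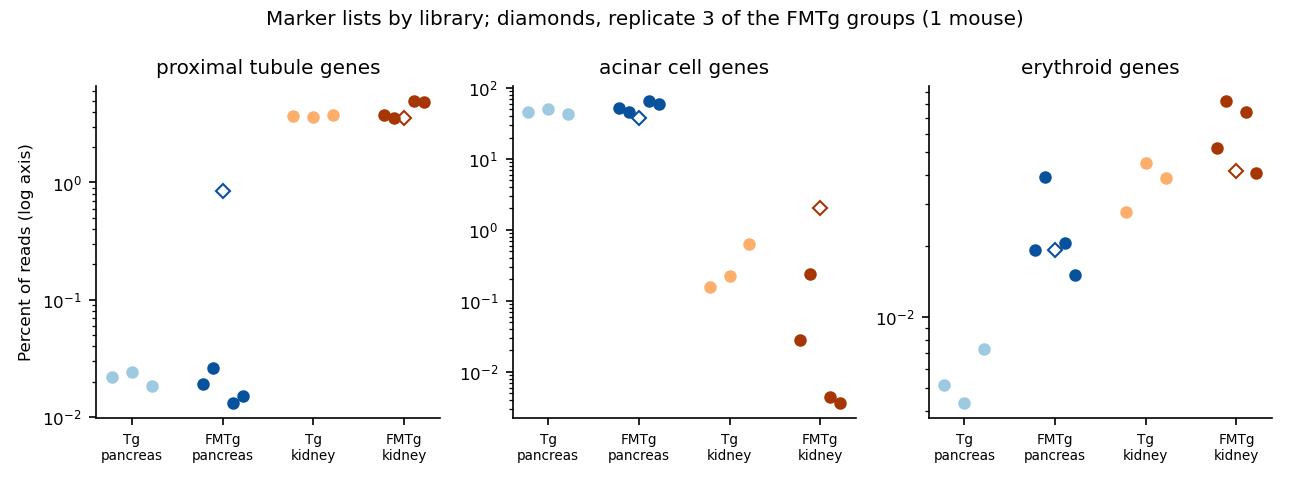
Share of reads (percent, log axis) in 3 lists of marker genes, 1 point per library in each of the 4 groups, with replicate 3 of the FMTg groups as open diamonds. Proximal tubule genes took 0.845% of reads in FMTg Pancreas replicate 3 and at most 0.0260% in the other pancreas libraries, and erythroid genes were higher in all 5 FMTg pancreas libraries than in the 3 Tg pancreas libraries.

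Sex also differed between the groups. The summed reads of 4 Y-linked genes (Ddx3y, Kdm5d, Eif2s3y and Uty) were 1990 to 3763 normalised reads in FMTg Pancreas replicates 1, 4 and 5 and FMTg Kidney replicates 4 and 5, and at most 62.1 in the other 11 libraries. No Tg library was among those 5, so sex and genotype are confounded in part. FMTg replicates 4 and 5 of both tissues also carry lower mouse numbers than the rest. Results with mouse as a block are given where the block changes them, because 5 mice gave both tissues.

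Mdm2 (ENSMUSG00000020184.15, chromosome 10, 117688875 to 117710758 of GRCm38) was the targeted gene. It had 979, 864 and 1357 normalised reads in Tg pancreas, 4014, 3717, 3774, 2822 and 2005 in FMTg pancreas, 918, 959 and 1039.7 in Tg kidney and 3781, 5696, 3672, 3499 and 3229.5 in FMTg kidney. The lowest FMTg library exceeded the highest Tg library in the pancreas and in the kidney. Since p53 itself raises Mdm2, and the deleted segment is not named in the labels, its total does not check the deletion. It rose by 1.59 ± 0.25 (log2, SE, n = 5 FMTg and 3 Tg) in the pancreas, with a limma adjusted p of 0.0286, and by 2.00 ± 0.17 in the kidney (adjusted p = 6.85e-04). The pancreas call held in 2 of the 8 fits that left out a pancreas library (adjusted p up to 0.189). The tissue-by-genotype difference was -0.41 ± 0.32, with a 95% interval of -1.10 to 0.29 and an adjusted p of 0.863. Trp53, which encodes p53, overlapped between genotypes in both tissues, from 232 to 418 normalised reads in FMTg pancreas against 276 to 308 in Tg pancreas, and from 176 to 249.9 against 249.7 to 251 in the kidney. Its difference between tissues was 0.22 ± 0.28 (adjusted p = 0.897).

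Within the pancreas alone, 64 genes rose (0.419%) and 4 fell (0.0262%) of 15262 tested, 0.446% in all. Within the kidney alone 93 rose (0.603%) and 2 fell (0.013%) of 15415 tested, 0.616% in all. These are calls by limma at a Benjamini-Hochberg adjusted p below 0.05. Of 14721 genes tested in both tissues, 35 were called in both, or 0.238%, and all 35 rose in both. They are 51.5% of the pancreas calls and 36.8% of the kidney calls. For each of the 35 the FMTg libraries lay above the Tg libraries without overlap in both tissues. Of all genes tested in both tissues, 1.28% had groups that did not overlap, in the same direction, in both, and over all 15956 genes 9.37% did so in the pancreas and 8.56% in the kidney. The number called in both was 27 without FMTg Pancreas replicate 3, all of them among the 35. It was 7, 7 and 14 without Tg Pancreas replicate 1, 2 or 3, 13 and 20 without FMTg Pancreas replicate 1 or 2, and 19, 21 and 20 without Tg Kidney replicate 1, 2 or 3. With a term for libraries with Y-linked reads in the separate fit of each tissue, and no block, it was 8, and in mice that also gave an ovary library it was 2, Psrc1 and Trp53inp1. In each of these fits by sex or ovary library, and without FMTg Pancreas replicate 3, the effects of all 35 genes stayed positive in both tissues. This sign was fixed in advance, because no Tg library reached any FMTg library of its tissue for these genes. The fits by sex and by ovary library both take the pancreas effect from FMTg replicates 2 and 3 alone.

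A further 33 genes were called in the pancreas alone and 60 in the kidney alone, but a call in 1 tissue is not a difference between tissues. The difference itself passed the threshold for 0 of 15956 genes by limma (0%), with the smallest adjusted p at 0.0782. Before adjustment, 1145 genes (7.18%) had a p below 0.05, of which 660 (4.14% of those tested) had the larger effect in the pancreas and 485 (3.04%) the larger effect in the kidney. Voom on the recovered reads also called 0 genes, with 1156 at an unadjusted p below 0.05. With mouse as a block, 15 genes passed (0.094%, with 9.73% at an unadjusted p below 0.05), 13 with the larger effect in the pancreas (0.0815%) and 2 with the larger effect in the kidney (0.0125%). Without FMTg Pancreas replicate 3 that count was 18, and 13 of the 15 were among them. Without both FMTg Pancreas replicate 3 and FMTg Kidney replicate 3 it was 11, and 9 of the 15 were among them. Precision differed between the tissues: the median standard error of a gene's effect was 0.38 in the pancreas and 0.19 in the kidney on the log2 scale, and 0.47 for the difference.

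**Figure D2:**
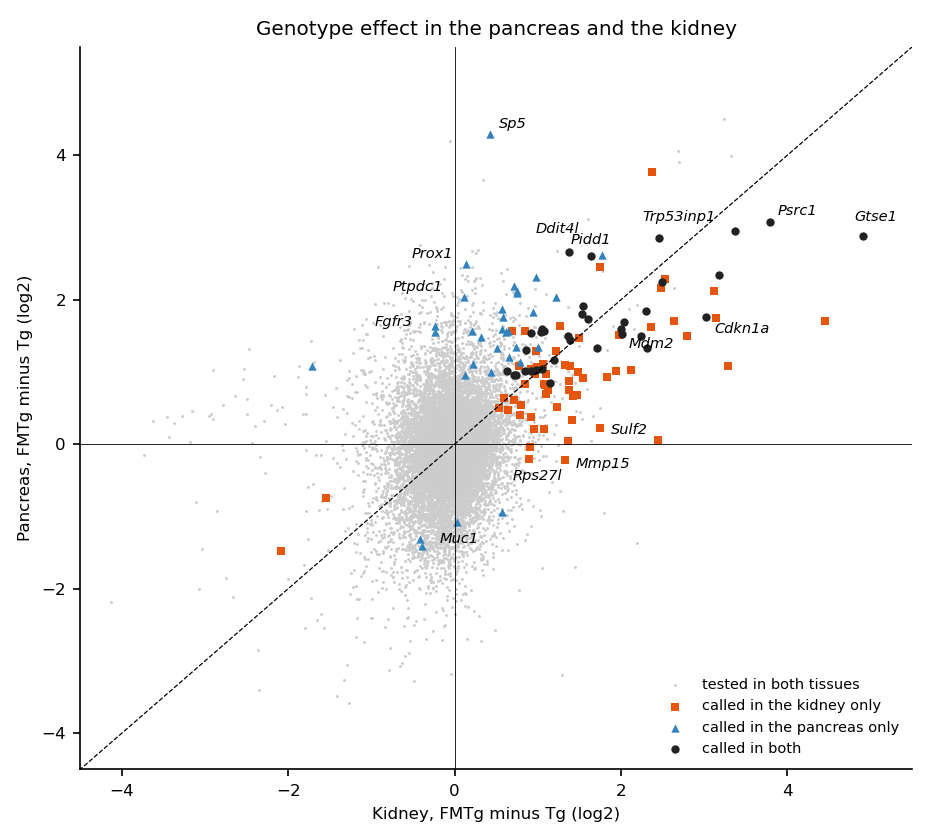
Effect of Mdm2 loss (FMTg minus Tg, log2) in the kidney on the x axis and in the pancreas on the y axis, 1 point per gene tested in both tissues, with equal effects on the dashed line. The 35 genes called in both tissues lie in the upper right, with Gtse1, Psrc1 and Cdkn1a below the line and Trp53inp1, Pidd1 and Ddit4l above it, while Prox1, Ptpdc1 and Fgfr3 lie near 0 on the kidney axis and Sulf2, Mmp15 and Rps27l near 0 on the pancreas axis.

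The shared response held p53 targets of several roles. On 5 lists of p53 targets, with 75 tested genes in all, 21 genes rose in both tissues. They were 3 on the feedback list, 6 on arrest, 5 on apoptosis and 5 on repair and metabolism. The other 2, Inka2 and Susd6, were on the list named secreted and membrane. The other 14 of the 35 shared genes were on none of these lists. The lists were chosen with earlier results of these data known, so the overlap of 21 genes is a description and no test. Of all genes tested in both tissues, 0.238% were called in both. Over the 35 the median effect was 1.56 in the pancreas and 1.53 in the kidney. Their median difference was 0.06, beside -0.01 for all genes tested.

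Among the feedback genes, Trp53inp1, a stress-induced cofactor of p53 with a part in autophagy, rose strongly in both tissues. It had 1804, 1527 and 2172 normalised reads in Tg pancreas and 14556, 12566, 10926, 13442 and 14777 in FMTg pancreas, a 7.24-fold rise (adjusted p = 1.75e-04). In the kidney it had 1107, 1075 and 1059 in Tg and 4617, 6575, 5377, 7688 and 6082 in FMTg libraries, a 5.51-fold rise (adjusted p = 1.01e-04). The groups did not overlap in either tissue, and each call survived the removal of any 1 of the 8 libraries of its tissue. The difference was 0.39 ± 0.24, with a 95% interval of -0.11 to 0.90, which includes 0. Ccng1, a cyclin that helps return p53 to its resting level, rose by 1.85 ± 0.22 in the pancreas and 2.30 ± 0.30 in the kidney (difference -0.45 ± 0.41). Its 2 highest kidney libraries were FMTg replicates 4 and 5, which have Y-linked reads, at 34353 and 26484 normalised reads, and its kidney call held in 5 of 8 fits that left out a library.

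The 6 arrest genes called in both tissues were Cdkn1a, Gtse1, Psrc1, Sesn2, Plk2 and Zmat3. Cdkn1a, which encodes the inhibitor p21 of cyclin-dependent kinases, had 1935, 1764 and 2508 normalised reads in Tg pancreas and 240.1, 210.0 and 281 in Tg kidney. In FMTg mice it reached 6917, 6113, 4109, 8748 and 10905 in the pancreas and 1366, 2152, 1593, 2287 and 3064 in the kidney. The lowest Tg pancreas library was thus above the lowest FMTg kidney libraries, replicates 1 and 3. Its rise was 3.41-fold in the pancreas (1.77 ± 0.29, adjusted p = 0.0337) and 8.12-fold in the kidney (3.02 ± 0.24, adjusted p = 5.04e-04). The pancreas call held in 1 of 8 fits that left out a library, and the difference of -1.25 ± 0.41 (unadjusted p = 0.00735) did not pass after adjustment (0.499, and 0.199 with the block). Levels between tissues also depend on the scaling of libraries that differ in depth and in acinar content.

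Gtse1 (ENSMUSG00000022385.11, chromosome 15, 85859745 to 85876573), a microtubule-binding protein that moves p53 out of the nucleus, showed the largest gap between the effects among the shared genes. Tg pancreas libraries had 88.2, 108 and 149 normalised reads and Tg kidney libraries 16.5, 21.4 and 40.9. In FMTg mice the tissues overlapped, with 1194, 1028, 953, 819 and 527 in the pancreas and 692, 1072, 739, 1079.7 and 1059.6 in the kidney. Its rise was 2.89 ± 0.29 in the pancreas (adjusted p = 0.00494) and 4.91 ± 0.26 in the kidney (adjusted p = 2.77e-05). The difference was -2.02 ± 0.41 (adjusted p = 0.185), and with mouse as a block -1.99 ± 0.35 (adjusted p = 0.0435). It was -2.05 ± 0.38 without FMTg Pancreas replicate 3 (adjusted p = 0.0565), and the blocked call held in 1 of 16 fits that left out a library.

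Psrc1, a spindle-associated protein, and Plk2, a polo-like kinase of the stress response, followed the same order. Psrc1 rose 8.47-fold in the pancreas, with 72.2 to 88.7 normalised reads in Tg and 617 to 881 in FMTg libraries, and 13.8-fold in the kidney, with 23.8 to 35.3 in Tg and 359.9 to 552 in FMTg libraries. Its difference was -0.71 ± 0.28 (unadjusted p = 0.0242, adjusted 0.619). Plk2 rose 2.53-fold and 4.95-fold, with a difference of -0.97 ± 0.27 (unadjusted p = 0.00271, adjusted 0.435), and its pancreas call held in 0 of 8 fits that left out a library.

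**Figure D3:**
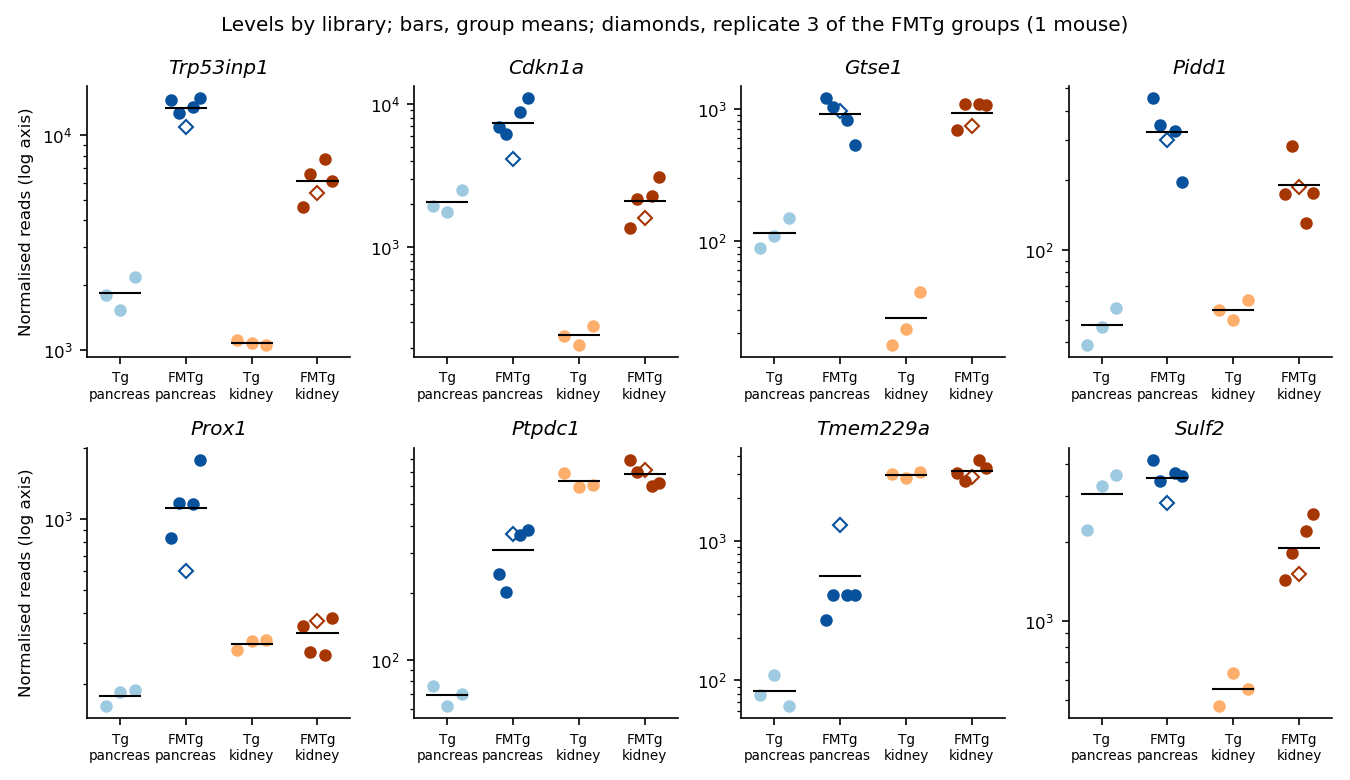
Normalised reads (log axis) of 8 genes in each of the 16 libraries, with group means as bars and replicate 3 of the FMTg groups as open diamonds. Gtse1 reached similar levels in both FMTg groups from a lower Tg level in the kidney, Prox1 and Ptpdc1 rose in the pancreas and overlapped in the kidney, and Tmem229a in FMTg Pancreas replicate 3 lay above the other pancreas libraries.

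Apoptosis genes of the shared set moved by similar amounts or by more in one tissue. Eda2r, a relative of the tumour necrosis factor receptors, rose 5.08-fold in the pancreas and 9.02-fold in the kidney (difference -0.83 ± 0.25, unadjusted p = 0.00508, adjusted 0.483). Phlda3, an inhibitor of the survival kinase Akt, rose 4.74-fold and 5.62-fold, with a difference of -0.24 ± 0.30 and an interval of -0.88 to 0.39. Pidd1, the core of the complex that activates caspase-2, leaned the other way. It had 39, 46.4 and 56.1 normalised reads in Tg pancreas, 453, 346, 301, 327 and 198 in FMTg pancreas, 54.9, 49.9 and 60.6 in Tg kidney and 175, 282, 186, 131 and 177 in FMTg kidney. From nearly the same Tg level it rose 6.07-fold in the pancreas and 3.12-fold in the kidney, with a difference of 0.96 ± 0.41 (unadjusted p = 0.0324, adjusted 0.641).

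Of the other shared genes, Inka2, an inhibitor of the kinase Pak4, rose 7.77-fold in the pancreas and 10.3-fold in the kidney. Ddit4l, an inhibitor of mTOR signalling, rose 6.33-fold and 2.59-fold, from 38.7 to 107 normalised reads in Tg pancreas and 213 to 271 in Tg kidney (difference 1.29 ± 0.42, unadjusted p = 0.00776, adjusted 0.5). Mgmt, which removes alkyl groups from DNA, rose 2.83-fold and 4.72-fold (difference -0.74 ± 0.32, adjusted p = 0.642). Zfp750, a zinc finger factor of epithelial differentiation, and Aaas, a nuclear pore protein, had differences of -0.35 ± 0.37 and -0.48 ± 0.34, whose intervals include 0. In the pancreas, of 8 fits that left out a library, the call held in 2 for Ddit4l, Mgmt and Aaas, 1 for Zfp750, 3 for Pidd1 and 6 for Inka2.

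How alike the effects were is bounded by the intervals. Of the 35 shared genes, 17 had a 95% interval of the difference inside -1 to 1, that is, within a 2-fold ratio of the effects, against 30.2% of all genes tested. A call in both tissues favours small standard errors, so these 2 shares do not compare how alike the responses were. The median standard error of the 35 was 0.21 in the pancreas and 0.17 in the kidney, beside 0.38 and 0.19 for all genes. The other 18 had an interval that reached past that range, so these data do not bound their effects to within 2-fold of each other. Among the 17, chosen after their values were seen, were Zmat3, an RNA-binding target of p53, with -0.35 to 0.60, Polk, a translesion polymerase, with -0.22 to 0.78, and Phlda3 and Trp53inp1 as above. At an unadjusted p below 0.05 the difference was larger in the kidney for 6 of the 35 (Gtse1, Cdkn1a, Plk2, Eda2r, Mgmt and Psrc1) and larger in the pancreas for 5 (Ddit4l, Pidd1, Ak1, Fat1 and Csnk1g1). Those 11 are 31.4% of the 35, beside 7.18% of all genes tested. Gtse1 was the 1 gene among them that passed with the block after adjustment.

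**Figure D4:**
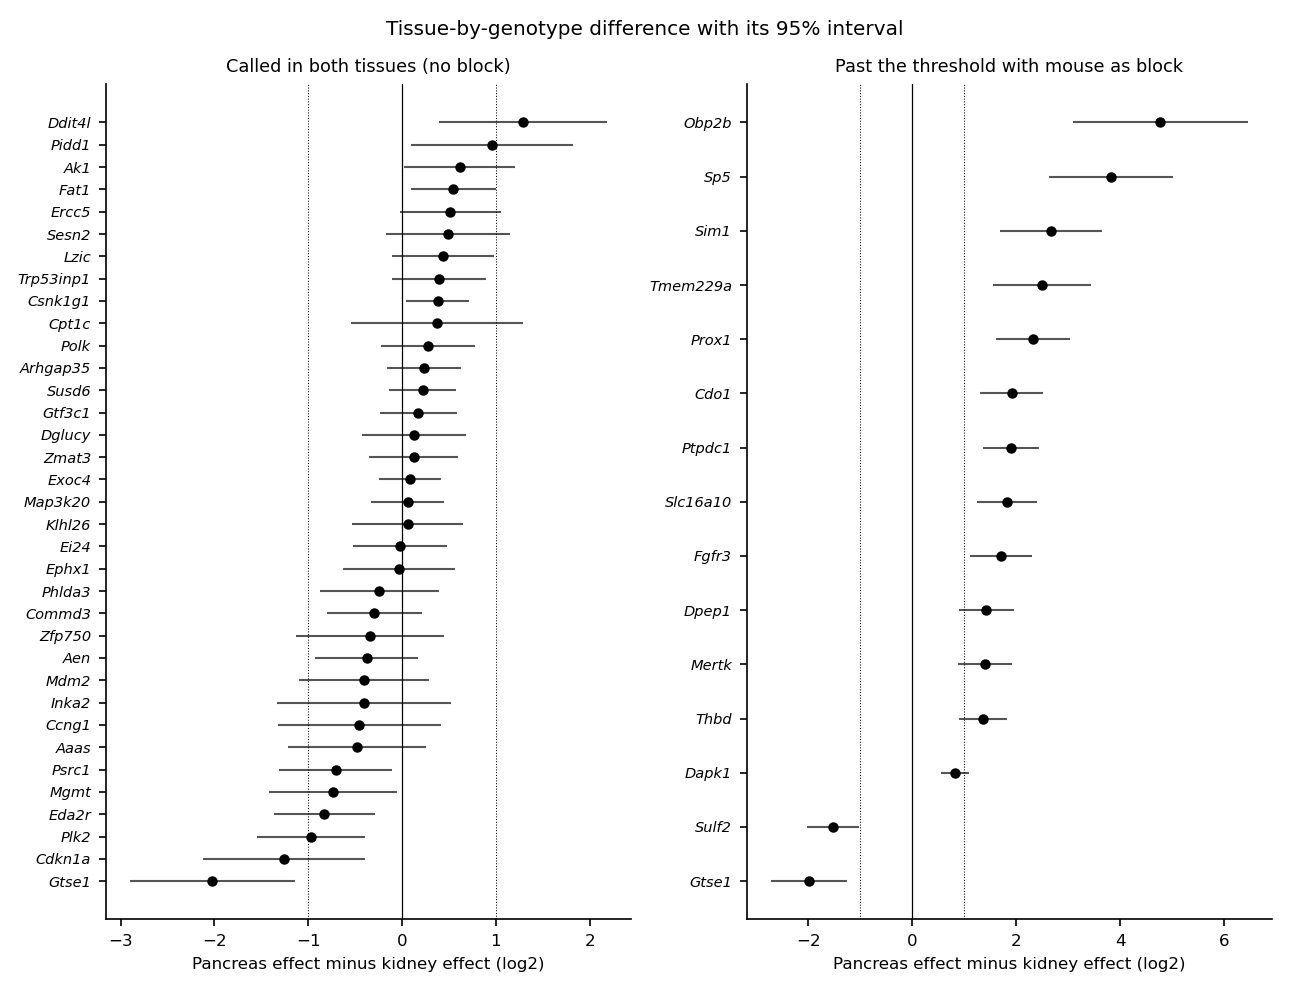
Tissue-by-genotype difference (pancreas effect minus kidney effect, log2) with its 95% interval, for the 35 genes called in both tissues without the block (left) and for the 15 genes past the threshold with mouse as a block (right), with dotted lines at -1 and 1. On the left 17 intervals lie inside the dotted lines, and on the right 13 genes lie above 0 and 2 below.

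Promoter sequences were read for the genes of the shared set because p53 binds a known element near many of its targets. The RefSeq table for GRCm38.p6 gave 300 bases around the annotated start (250 before and 50 after) for 32 of the 35 genes. The p53 response element, a pair of half-sites of 10 letters, was searched on both strands with at most 1 base between the half-sites, at most 1 mismatch and an intact C and G in each half-site. It matched in 3 of the 32 (9.38%), Ccng1, Cdkn1a and Gtse1, beside 35 of 27025 promoters in the table (0.13%) and 14 of 12309 promoters of genes tested (0.114%). Of 48 promoters of genes called in the kidney alone 2 matched (4.17%), Rps27l and the predicted gene 1700007K13Rik, and of 26 promoters of genes called in the pancreas alone 0 matched. The 4 stretches below show the match in capitals with its flanking bases, 5′ to 3′ on the gene's strand, for the 3 shared genes and for Rps27l, which was called in the kidney alone. The Gtse1 stretch ends with the match.
Ccng1: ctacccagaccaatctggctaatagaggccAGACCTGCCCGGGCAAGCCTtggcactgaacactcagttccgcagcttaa
Cdkn1a: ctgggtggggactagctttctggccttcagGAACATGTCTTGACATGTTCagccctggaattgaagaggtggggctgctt
Gtse1: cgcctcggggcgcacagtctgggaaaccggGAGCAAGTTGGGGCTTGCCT
Rps27l: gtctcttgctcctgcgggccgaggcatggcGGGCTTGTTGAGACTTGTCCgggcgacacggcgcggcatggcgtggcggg
They lie at chr11:40755432-40755511, minus strand for Ccng1, chr17:29090898-29090977, plus strand for Cdkn1a, chr15:85859915-85859964, plus strand for Gtse1 and chr9:66946266-66946345, plus strand for Rps27l. A match is a description of letters, and p53 binding was not measured.

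The genes whose effect was larger in the pancreas with mouse as a block were Prox1, Ptpdc1, Sp5, Slc16a10, Cdo1, Dapk1, Thbd, Fgfr3, Obp2b, Sim1, Mertk, Dpep1 and Tmem229a. None of the 13 is on the lists of p53 targets. Without the block their adjusted p ran from 0.0782 to 0.185. In Tg mice 12 of the 13 had a higher level in the kidney than in the pancreas, beside 8580 of 15956 for all genes tested, and Obp2b was the exception. For 7 of the 13 every Tg kidney library was still above every FMTg pancreas library, beside 4430 of 15956 for all genes tested. FMTg Pancreas replicate 3, which held kidney transcripts, was the highest FMTg pancreas library for 3 of the 13, Sim1, Mertk and Tmem229a, beside 4315 of 15956 for all genes tested.

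Transcription factors were among them. Prox1 (ENSMUSG00000010175.13, chromosome 1, 190118035 to 190170714), a homeodomain transcription factor needed for lymphatic vessels and the pancreas to form, had 162, 186 and 189 normalised reads in Tg pancreas and 834, 1166, 603, 1152 and 1776 in FMTg pancreas. In the kidney it had 279, 304 and 309 in Tg and 354, 274, 372, 267 and 380.4 in FMTg libraries, which overlap. The pancreas effect was 2.50 ± 0.31 (adjusted p = 0.0106) and the kidney effect 0.13 ± 0.15 (adjusted p = 0.688). The blocked difference was 2.32 ± 0.33 (adjusted p = 0.0198), and 2.58 ± 0.27 without FMTg Pancreas replicate 3 (adjusted p = 0.00196), which was the lowest FMTg pancreas library for this gene. The call held in 10 of 16 fits that left out a library.

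Sp5, a transcription factor downstream of Wnt, had 4 reads in all over the Tg pancreas libraries and 300 over the FMTg pancreas libraries. Normalised, these were 2.05, 2.58 and 4.67 and 86.7, 151, 81.7, 400.4 and 180.4. In the kidney the groups overlapped, at 56.5 to 69.7 in Tg and 55.6 to 134 in FMTg. Its blocked difference was 3.82 ± 0.56 (adjusted p = 0.0198), on a log2 scale that compresses low values. Sim1, a basic helix-loop-helix factor, had 22.6, 36.1 and 23.4 in Tg pancreas and 76.9, 101, 368, 160.2 and 255 in FMTg pancreas, against 975 to 997 in Tg kidney. Replicate 3 was its highest pancreas library, and the blocked difference was 2.67 ± 0.46 with it (adjusted p = 0.0435) and 2.33 ± 0.38 without it (adjusted p = 0.028).

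Among receptors and signalling proteins, Fgfr3, a receptor of fibroblast growth factors, rose 2.93-fold in the pancreas, with 291 to 343 normalised reads in Tg and 769 to 1240.0 in FMTg libraries. In the kidney its effect was -0.24 ± 0.21, and the blocked difference was 1.70 ± 0.28 (adjusted p = 0.0339). Dapk1, a kinase of cell death signalling, had 819.7 to 991 in Tg and 1538 to 1891 in FMTg pancreas and 1547 to 1709 and 1611 to 1867 in the kidney. FMTg pancreas thus came to the level that both kidney groups held, with a blocked difference of 0.83 ± 0.13 (adjusted p = 0.0224). Mertk, a receptor kinase used to clear dying cells, differed by 1.40 ± 0.24 with FMTg Pancreas replicate 3 (adjusted p = 0.0435) and 1.20 ± 0.19 without it (0.0238). Ptpdc1, a protein phosphatase, rose from 75.9, 61.9 and 70.1 to 242, 201, 368, 363 and 384 in the pancreas and had 595 to 691 and 605 to 790.3 in Tg and FMTg kidney (blocked difference 1.90 ± 0.25, adjusted p = 0.0198, held in 12 of 16 fits that left out a library).

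Enzymes, transporters and secreted or surface proteins made up the rest. Cdo1, which oxidises cysteine, rose 3.11-fold in the pancreas with a kidney effect of -0.24 ± 0.15 (blocked difference 1.91 ± 0.28, adjusted p = 0.0198). Slc16a10, a transporter of aromatic amino acids, had 115, 165 and 103 in Tg and 262, 553, 524, 449.7 and 387 in FMTg pancreas, without overlap. It was not called in the pancreas alone (adjusted p = 0.0607), and its blocked difference was 1.82 ± 0.27 (adjusted p = 0.0198). Dpep1, a dipeptidase of the tubule brush border, differed by 1.42 ± 0.25 (adjusted p = 0.0448), and this call was lost without FMTg Pancreas replicate 3 (1.37 ± 0.27, adjusted p = 0.0899).

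Thbd, the thrombin receptor thrombomodulin of endothelial cells, had effects of opposite sign. It had 525, 567 and 575 in Tg pancreas and 948, 1257, 786, 850.2 and 1148 in FMTg pancreas, but 841, 784 and 883 in Tg kidney and 528, 640.4, 604, 403 and 670.5 in FMTg kidney. Every FMTg value was thus higher than every Tg value in the pancreas and lower in the kidney. Neither effect passed in its own tissue (0.82 ± 0.19 and -0.57 ± 0.16, adjusted p = 0.153 and 0.354), while the blocked difference of 1.37 ± 0.22 did (0.0251). Tmem229a, a membrane protein, had 270.0, 408, 1301, 407 and 409.5 in FMTg pancreas, with replicate 3 the highest, against 78, 108 and 65.4 in Tg pancreas and 2788 to 3107 in Tg kidney. Its blocked difference was 2.50 ± 0.44 (adjusted p = 0.0462), and 2.04 ± 0.24 without replicate 3, with an adjusted p of 0.00372. Obp2b, a lipocalin carrier, was seen as 1 read over the Tg pancreas libraries, 271 over the FMTg pancreas libraries, and 1 read each over the Tg and the FMTg kidney libraries. Its blocked difference was 4.77 ± 0.79 (adjusted p = 0.0339). It had 27.8 to 306 normalised reads in FMTg pancreas and at most 0.892 in any kidney library. A rise to the FMTg pancreas level was thus not seen in the kidney, where a change of Obp2b near the floor could not be measured.

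With the block, 2 genes had the larger effect in the kidney. One was Gtse1, above. The other was Sulf2 (ENSMUSG00000006800.14, chromosome 2, 166073089 to 166155663), an enzyme that removes sulfate groups from heparan sulfate at the cell surface. It had 476, 633 and 553 normalised reads in Tg kidney and 1432, 1828, 1517, 2205 and 2558 in FMTg kidney, but 2234.5, 3298.1 and 3626.9 in Tg and 4135, 3443, 2817, 3696 and 3579.7 in FMTg pancreas. The kidney groups did not overlap and the pancreas groups did. It rose 3.36-fold in the kidney (adjusted p = 0.00372, held in 8 of 8 fits that left out a library), and its pancreas effect was 0.23 ± 0.19 (adjusted p = 0.801). The blocked difference was -1.52 ± 0.24 (adjusted p = 0.0251), and -1.44 ± 0.25 without FMTg Pancreas replicate 3 (0.0445). FMTg kidney replicates 4 and 5, which have Y-linked reads, were its highest.

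These 15 calls depended on which libraries entered the fit. Of 16 fits with the block that each left out a library, the call held in 11 for Slc16a10 and Cdo1, 10 for Sp5, 9 for Dapk1, 7 for Sulf2, 6 for Thbd, 5 for Fgfr3, 4 for Obp2b, 3 for Sim1, Mertk and Dpep1, and 2 for Tmem229a. Prox1, Ptpdc1 and Gtse1 are given above. Over the same fits the count of genes was 3, 7 and 0 without Tg Pancreas replicate 1, 2 or 3, 6 without FMTg Pancreas replicate 5, and 0, 3 and 1 without Tg Kidney replicate 1, 2 or 3. It was 9, 0, 9, 7 and 9 without FMTg Kidney replicate 1, 2, 3, 4 or 5, and 20, 10, 18 and 20 without FMTg Pancreas replicate 1, 2, 3 or 4. Voom on the recovered reads with the block called 0, with the smallest adjusted p at 0.0691. Each of the 15 kept its direction in that fit, in the fit with terms for sex and in mice with an ovary library. These genes were picked for their difference in the same libraries, so a kept direction was likely from the start. In the pancreas, the fits with sex terms and with ovary mice both set mainly FMTg replicates 2 and 3 against Tg. They are thus not separate checks, and replicate 3 held kidney transcripts. With the sex terms 3 genes passed, Slc16a10, Tmem229a and Enpp2, the last named here after its value was seen. Among mice with an ovary library 19 passed, and 4 of the 15 were among them, Sp5, Slc16a10, Fgfr3 and Dpep1.

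Most genes called in the kidney alone were not shown to differ from the pancreas. Of the 60, 56 had the same sign in both tissues, and 9 had a difference at an unadjusted p below 0.05 (15%, beside 7.18% of all genes), with the larger effect in the kidney in all 9. Genes of this class are named here after their values were seen. Effectors of apoptosis were among them. Bax, the pore former of the mitochondrial membrane, had effects of 1.09 ± 0.32 in the pancreas and 1.39 ± 0.11 in the kidney. Fas, a death receptor, had 1.04 ± 0.29 and 0.92 ± 0.14, and Apaf1, the scaffold of the apoptosome, had 1.10 ± 0.21 and 1.06 ± 0.17. For Bbc3, a BH3-only protein, the effect was 2.46 ± 0.57 in the pancreas, where replicate 4 was far above the rest, and 1.74 ± 0.28 in the kidney. Their pancreas adjusted p were 0.299, 0.26, 0.0719 and 0.163, and the intervals of their differences all include 0. Gdf15, a circulating stress cytokine, likewise had 2.16 ± 0.44 in the pancreas (adjusted p = 0.0941) and 2.48 ± 0.29 in the kidney (adjusted p = 0.0044).

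A few genes of this class had effects close to 0 in the pancreas. Rps27l, a ribosomal protein paralog whose reads may be shared with its close copy, had 2470.5, 3043 and 2506 normalised reads in Tg and 2905, 2956, 2833, 1275 and 2131 in FMTg pancreas. In the kidney it had 917, 707 and 981 in Tg and 1569.8, 1784, 1849, 1519.8 and 1339.8 in FMTg libraries. Its effects were -0.20 ± 0.27 and 0.89 ± 0.14, and its difference was -1.09 ± 0.33 (unadjusted p = 0.00448, adjusted 0.479). Mmp15, a membrane metalloproteinase, Rfc2, a subunit of the clamp loader of DNA replication, and Enc1, an actin-binding protein, had differences of -1.55 ± 0.39, -0.95 ± 0.30 and -1.31 ± 0.42, with adjusted p of 0.348, 0.483 and 0.484. For Zfp365, a zinc finger protein that helps keep the genome stable, the pancreas effect was too imprecise to compare (1.08 ± 1.21 against 3.29 ± 0.25).

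Of the 33 genes called in the pancreas alone, 28 had a difference at an unadjusted p below 0.05 (84.8%, beside 7.18% of all genes tested). Of the 28, 25 were toward the pancreas and 3 toward the kidney. With the block 8 of the 33 passed, beside 0.094% of all genes tested. These shares are not independent of the choice of the genes, since the same pancreas values enter both tests. This holds for the shared and kidney-only genes too. Lpin1, a phosphatidate phosphatase of fat synthesis on the repair and metabolism list, had 1.56 ± 0.17 in the pancreas and 0.62 ± 0.18 in the kidney (difference 0.94 ± 0.25, adjusted p = 0.428). Foxo3, a transcription factor restrained by Akt, and Ccnd1, cyclin D1, were named after their values were seen and had differences of 0.90 ± 0.26 and 1.29 ± 0.50 (adjusted p = 0.449 and 0.613). FMTg Pancreas replicate 3 was the highest pancreas library for Ccnd1, whose blocked difference was 1.42 ± 0.44 with it (adjusted p = 0.267) and 1.11 ± 0.39 without it (0.315). Muc1, a mucin of ductal epithelium, fell by 1.08 (log2) in the pancreas, with 5185 to 6545 normalised reads in Tg and 2019.5 to 3262 in FMTg libraries, and had a kidney effect of 0.02 ± 0.19 (difference -1.10 ± 0.26, adjusted p = 0.332, with the block 0.11).

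Read by role, the 75 tested p53 targets had a median difference of -0.22, beside -0.01 for all genes tested. In the pancreas 23 rose and 0 fell, and in the kidney 34 rose and 0 fell. Of all genes tested, 0.419% rose in the pancreas and 0.603% in the kidney, to be set beside these counts and those of each list below. The lists were chosen with earlier results of these data known. The difference passed for 0 of the 75 without the block and for 1, Gtse1, with it, beside 0% and 0.094% of all genes tested. Of the 8 feedback genes, 3 rose in each tissue (Mdm2, Ccng1 and Trp53inp1), with a median difference of 0.04. Sesn1, a sestrin that restrains mTOR signalling, and Mdm4, the partner of Mdm2, were called in neither tissue and had differences of 1.04 ± 0.35 and 0.68 ± 0.46 (adjusted p = 0.5 and 0.826). Mdm4 had 2960, 3698, 2801, 1331 and 1201 normalised reads in FMTg kidney, against 1997 to 2357 in Tg kidney. In FMTg pancreas it had 3924, 4104, 3474, 2458 and 2148, against 1859 to 2027 in Tg pancreas. FMTg replicates 4 and 5, with the lower mouse numbers, were thus its lowest FMTg libraries in both tissues. For Sesn1 they were the lowest in the kidney (234 and 214) and the highest in the pancreas (684 and 879).

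The 14 arrest genes had the lowest median difference of the 5 lists, -0.88, with 10 of 14 below 0. Of these genes 6 rose in the pancreas, 7 in the kidney and 6 in both, beside 0.419%, 0.603% and 0.238% of all genes tested. In Tg mice 12 of the 14 had a lower level in the kidney than in the pancreas. At an unadjusted p below 0.05, 5 had the larger effect in the kidney and 1 in the pancreas, beside 3.04% and 4.14% of all genes tested. The exception was Ccnd2, cyclin D2, with 2659, 3886 and 3746 normalised reads in Tg and 11832, 10141, 6634, 26651 and 25733 in FMTg pancreas, against 420.1 to 488 and 272 to 613 in the kidney. Its difference was 2.34 ± 0.54 (adjusted p = 0.31) and with the block 2.18 ± 0.50 (0.142). The block without FMTg Pancreas replicate 3, its lowest FMTg pancreas library, gave 2.58 ± 0.41, with an adjusted p of 0.0274.

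Of 18 apoptosis genes, 5 rose in the pancreas and 13 in the kidney, and the median difference was -0.18. Over all genes tested, 0.419% rose in the pancreas and 0.603% in the kidney, beside this count and those of the lists that follow. Besides Eda2r and Pidd1, Trp53i11, a p53-inducible membrane protein, had a difference of 1.92 ± 0.58 (adjusted p = 0.479), and its 2 lowest kidney libraries were FMTg replicates 4 and 5, which have Y-linked reads. The death receptor Tnfrsf10b rose 5.14-fold in the kidney (adjusted p = 4.73e-05) and had 1.62 ± 0.29 in the pancreas (adjusted p = 0.0538), with a difference of -0.75 ± 0.32. Of 19 repair and metabolism genes, 6 rose in the pancreas and 5 in the kidney, with a median difference of 0.28. Ercc5, a nuclease of excision repair, rose in both (1.56 ± 0.18 and 1.04 ± 0.17), while Xpc, the damage sensor of the same pathway, had -0.54 ± 0.23 and 0.36 ± 0.16, neither past the threshold. Pltp, a phospholipid transfer protein, had a difference of 1.55 ± 0.46 (adjusted p = 0.47). Of 16 secreted and membrane genes, 3 rose in the pancreas and 6 in the kidney, with a median difference of -0.36 and 14 of 16 below 0. Lif, a cytokine of the interleukin-6 family, had 1.70 ± 0.43 and 2.63 ± 0.30, Dcxr, a carbonyl reductase, 2.03 ± 0.23 and 1.22 ± 0.29, and Sdc1, a cell-surface proteoglycan, -0.15 ± 0.20 and 0.49 ± 0.13.

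**Figure D5:**
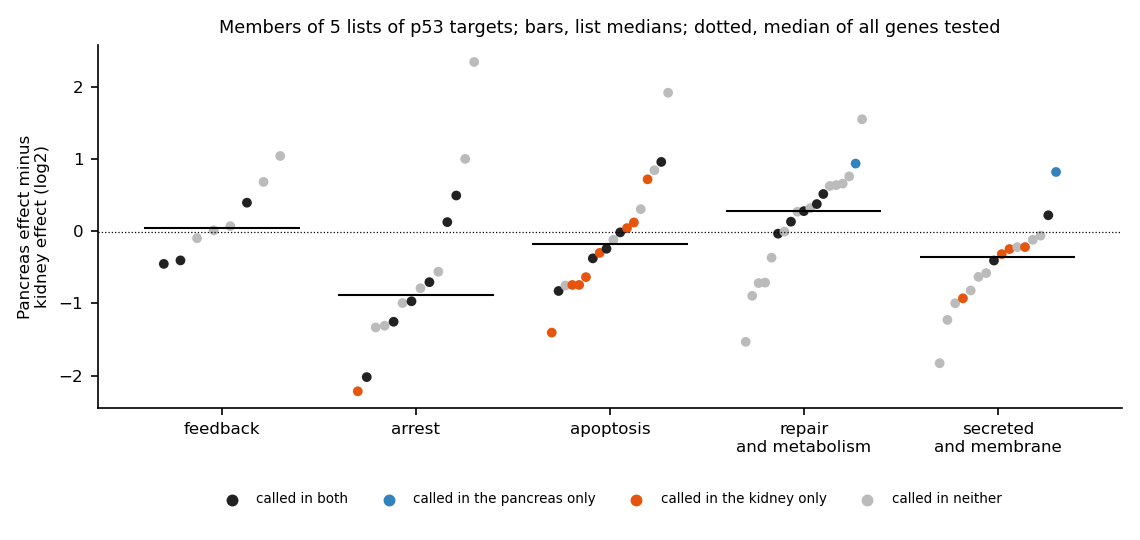
Tissue-by-genotype difference (pancreas effect minus kidney effect, log2) of each tested member of 5 lists of p53 targets, sorted within a list and coloured by the tissue in which the member was called, with list medians as bars. The arrest list has the lowest median, at -0.88, and the repair and metabolism list the highest, at 0.28.

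Markers of other cell types are given next, and in bulk tissue fewer cells of a type and less RNA per cell cannot be told apart. Erythroid genes were higher in all 5 FMTg pancreas libraries, at 0.0151% to 0.0391% of reads, than in the Tg pancreas, at 0.00430% to 0.00733%. In the kidney the ranges were 0.0410% to 0.0824% in FMTg and 0.0279% to 0.0452% in Tg. All 7 erythroid genes had a difference above 0, with a median of 1.44, and 2 of them rose in the pancreas, the beta globin Hbb-bs (2.10 ± 0.29, adjusted p = 0.017) and the alpha globin Hba-a1 (2.31 ± 0.35, adjusted p = 0.0242). In the kidney these had 0.76 ± 0.31 and 0.98 ± 0.33, and their differences did not pass (adjusted p = 0.524 and 0.613). Of all genes tested, 0.419% rose in the pancreas. Hba-a1 and Hba-a2 are near-identical, so their reads may be split between them. The part of red cells in the pancreas results was not tested.

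All 8 endothelial genes likewise had a difference above 0, with a median of 0.57 and none past the threshold. Flt1, a receptor of vascular growth factors, had 0.37 ± 0.15 in the pancreas and -0.28 ± 0.16 in the kidney, with FMTg libraries above all Tg libraries in the one and below in the other (difference 0.66 ± 0.22, adjusted p = 0.5). Thbd, described above, is also an endothelial gene, and the part of vessel content in its difference was not tested. Summed endothelial reads were 4560 to 6179 normalised reads in FMTg and 3592 to 4082 in Tg pancreas, and 7727 to 10440 in FMTg and 8737 to 9888 in Tg kidney. Of 8 macrophage genes 6 had a difference above 0 (median 0.59), and Csf1r, their growth factor receptor, had a difference of 1.13 ± 0.37 (adjusted p = 0.5).

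Acinar genes had the largest median difference of the lists, 3.26, with 19 of 21 above 0, but none had an unadjusted p below 0.05. Their pancreas median was 0.35 and their kidney median -2.91. In the kidney these genes took 0.156% to 0.636% of reads in Tg and 0.00361% to 2.00% in FMTg libraries. Ctrb1, chymotrypsinogen, had 3474, 5079.6 and 14949 normalised reads in Tg kidney and 416, 4329, 44646, 23.4 and 9.91 in FMTg kidney, against 2065556 to 3058262 in Tg pancreas. Acinar transcripts were thus present in kidney libraries at amounts that varied by library, and their part in the kidney results was not tested. The 12 islet genes all had a difference above 0 (median 1.06). Chga, a granule protein of endocrine cells, was at 336, 20.6 and 14.2 in Tg and 0, 13.7, 34.8, 0.545 and 0 in FMTg kidney, while the glucose transporter Slc2a2, also made by tubules, had 1454 normalised reads in FMTg Pancreas replicate 3 and at most 283 in the other pancreas libraries. The 12 duct genes were split, with 6 differences above 0 and 6 below (median 0.13). Muc1, given above, was the 1 duct gene called in the pancreas. Clu, a secreted chaperone, and Krt18, a keratin, had differences of -1.36 ± 0.38 and -0.96 ± 0.39. Spp1, osteopontin, had one of 1.65 ± 0.48, and the limma adjusted p of these 3 were 0.435, 0.619 and 0.454.

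Among stress lists, the transcription factor Xbp1, which drives secretory capacity, had a difference below 0, while 10 of 12 genes of the unfolded protein response list lay above 0 (median 0.40). It had 42417, 59655 and 49955 normalised reads in Tg and 23966, 24961, 13746, 13590.4 and 11598 in FMTg pancreas, and 2258 to 3111 and 2108 to 2814 in the kidney. The pancreas groups did not overlap, but neither the pancreas effect (-1.59 ± 0.30, adjusted p = 0.0719) nor the difference (-1.54 ± 0.35, adjusted p = 0.31, with the block 0.0989) passed. The chaperone Hspa5 and the secreted factor Creld2 of the same list had differences of 0.51 ± 0.41 and 0.92 ± 0.45. Immediate early genes had a median difference of -0.61, with 9 of 12 below 0. Ier3, an early response gene, had -1.15 ± 0.38 in the pancreas and 0.08 ± 0.15 in the kidney, and Egr1, an early zinc finger factor, -0.01 ± 0.34 and 1.24 ± 0.28. None passed. Mitosis genes had a median of -0.62 with 17 of 20 below 0, on few reads in the pancreas: Birc5, the apoptosis inhibitor survivin, and Bub1, a spindle checkpoint kinase, were at 0 in FMTg Pancreas replicates 4 and 5. In replicate 4 a single read was worth 6.16 normalised reads. Neutrophil genes were lower in the same libraries, at 0.000461% and 0.00165% of reads against 0.0105% to 0.0250% in the other pancreas libraries, and their median difference was -1.64 with none of the 7 past the threshold.

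Genes known to differ by sex in the mouse kidney were high in the kidney libraries with Y-linked reads. Cyp7b1, a steroid hydroxylase, had 66.4, 54.8, 53.5, 4604 and 3676 normalised reads in FMTg kidney and 48.3 to 98.1 in Tg kidney, and Slc7a13, an amino acid transporter of the tubule, had 7.77, 11.4, 19.6, 11328 and 5658 and 3.94 to 13.3. The high values are FMTg Kidney replicates 4 and 5. Their differences (-3.56 ± 2.20 and -4.01 ± 2.63) did not pass.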

How the data were processed

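RNA was sequenced from 16 pancreas and kidney libraries of a series of 40. The authors deposited 1 table of log2 values for 18024 genes, and per the submitters' processing notes they used STAR 2.6.0b, GRCm38 and DESeq2, with the annotation release not given in the sources used here. The values have a floor of 1.65, and inverting the variance-stabilising transformation gave whole reads for 100% of values within 0.01, from which depth and normalised reads were computed. IDs were matched to GENCODE M21 for 17079 of 18024 genes.

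The main test was limma 3.58.1 (R 4.3.3, statmod 1.5.0) on the deposited log2 values (eBayes with trend), over group means of the 16 libraries. Genes had to lie 1 above the floor on average in at least 1 tissue (15956 genes), and p-values were adjusted by Benjamini-Hochberg at 0.05. Effects within a tissue came from separate fits of its 8 libraries. Errors are standard errors and intervals are 95%. Fold changes are on the deposited log2 scale, which understates the change of low genes.

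The sample IDs in the labels show that 5 mice gave both tissues, so the pairing is real for those. Mouse was fitted as a random block (consensus correlation 0.318 between libraries of 1 mouse). That correlation was 0.0832 in only the mice with both tissues, 0.0762 without the low-numbered mice and 0.163 with sex terms. With each library left out it was 0.196 to 0.383. The value used for the 15 blocked calls thus depended on the libraries and terms in the fit. Replicates are stated by the labels to be biological.

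Named genes were Mdm2, Trp53, up to 15 genes each way past the threshold of the difference, the 15 genes called in both tissues with the largest mean effect, and up to 4 genes of each described list with the smallest p. No gene passed without the block, so the same rule was applied to the blocked fit, and genes outside it are marked in the text. Members and gene lists were chosen with earlier results of these data known. Alternatives covered voom on recovered reads, filters, weights, subsets of mice and each library left out. The blocked alternatives, including terms for libraries with Y-linked reads, were chosen after seeing the data. The scripts were tested on simulated data. Promoter windows are from RefSeq.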

Additional observations from a re-analysis of the deposited data

Results flagged for a closer look

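The tissue-by-genotype difference passed the threshold in the limma fit with mouse as a block for 15 genes, and each is given here as pancreas effect minus kidney effect (log2). Among transcription factors it was 2.32 for Prox1, 3.82 for Sp5 and 2.67 for Sim1. Among receptors, kinases and phosphatases it was 1.70 for Fgfr3, 1.40 for Mertk, 0.827 for Dapk1 and 1.90 for Ptpdc1. For enzymes and transporters it was 1.91 for Cdo1, 1.42 for Dpep1 and 1.82 for Slc16a10. It was 1.37 for Thbd, 2.50 for Tmem229a and 4.77 for Obp2b, which had 1 read over the Tg pancreas libraries. It was below 0 for Sulf2, at -1.52, and for Gtse1, at -1.99. Without the block 0 genes passed, and 1145 had an unadjusted p below 0.05.

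Single libraries lay far from the rest of their group of 5 in 8 of 78 groups of values tested. The measure is the gap to the nearest library divided by the range of the group, with a critical value of 0.71. About 1 in 20 groups of independent, normally distributed values would pass it. The groups here share libraries, and many of the genes were picked for their effects in them. The 8 of 78 therefore cannot be set against that rate. Mdm2 was highest in FMTg Kidney replicate 2 (0.722). Tmem229a was highest in FMTg Pancreas replicate 3 (0.737), as were the shares of reads in proximal tubule genes (0.985) and in distal nephron genes (0.992), the latter at 0.257% of reads against 0.000267% to 0.00233% in the rest of its group. The acinar share was highest in FMTg Kidney replicate 3 (0.882). The erythroid share was highest in FMTg Pancreas replicate 2 (0.774), at 0.0391% against 0.0151% to 0.0205%. The podocyte share was lowest in FMTg Kidney replicate 4 (0.789), at 0.0283% against 0.0430% to 0.0470%. Obp2b in FMTg Kidney replicate 3 (1) rests on a single read.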

How the results depend on the processing

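Without a block, the number of genes whose effect differed between the tissues was 0. It was 160 with library weights, 1 with all 40 libraries in 1 model, 8 in mice with an ovary library, 6 without the low-numbered mice and 0 to 8 with each library left out in turn. With the replicate block, which pairs libraries by mouse, it was 15. That blocked count was 0 by voom, 0 in mice with both tissues, 3 with sex terms, 0 with sex terms and without FMTg Pancreas replicate 3, 9 without the low-numbered mice, 2 without a mean-variance trend and 0 to 20 with each library left out. The pancreas count of 68 was 10 without a trend, 568 with library weights, 383 with all 40 libraries, 291 from the joint model, 2 in mice with an ovary library, 109 without the low-numbered mice, 10 with a sex term and no block and 9 to 93 with each library left out. The kidney count of 95 was 211 with library weights, 59 with all 40 libraries, 45 from the joint model and 46 to 94 with each library left out. That kidney count was 137 with a sex term and no block, and 123 both in mice with an ovary library and without the low-numbered mice. The count in both tissues, 35, was 7 without a trend, 110 with library weights, 2 in mice with both tissues, 2 in mice with an ovary library, 55 without the low-numbered mice, 8 with a sex term and no block and 7 to 39 with each library left out. From the joint model it was 41, of which 31 were among the 35, and from the joint model with the replicate block 43, of which 32 were. The causes of these shifts were not tested, although subsets and left-out libraries also test fewer samples. No effect or difference of a named gene that was called changed sign, but these genes were called on the same libraries. For named genes over all alternatives, 1620 pancreas effects stayed on their side of the threshold, 387 lost the call and 81 gained it, and for kidney effects these were 1951, 163 and 7. Of the blocked differences 243 lost the call and 117 kept it. The pancreas had both lower depth and a larger median standard error, 0.38 against 0.19 in the kidney, and what sets that error was not tested.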
